A study of Homo sapiens with 6 samples.

Results

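The genes described here make up the autophagy and lysosome pathway, 47 members of the 34690 symbols on the arrays. With earlier results on these arrays known, these 47 members were chosen by name from a list of known genes. Of these, 45 were listed under their own symbol and 2 under an older one, ATG13 as KIAA0652 and ATG14 as KIAA0831. They comprised 25 genes that build the autophagosome, 19 genes of the lysosome and the 3 MiT/TFE transcription factors TFEB, TFE3 and MITF. By the labels, RNA came from SNU761, an established line of hepatocellular carcinoma cells. Whether every array holds this line was not tested. The cells had spent 24 h in the vehicle DMSO (control, 3 arrays) or in sorafenib (3 arrays), an inhibitor of RAF and receptor tyrosine kinases. The labels write the sorafenib dose as 3 mM, a unit that is uncertain because it lies far above doses usual in culture. Both groups were otherwise labelled alike, with no genetic change, and arrays were numbered 1 to 3 in each. Whether the numbers mark separate cultures is not given, so p-values measure the spread between these samples, part of which may be technical. With the group alone in the model, that spread includes a wide gap between the arrays numbered 3 and the others. APOA1 had log2 signals of 5.68 and 5.60 on control and sorafenib array 3, against 13.50 to 14.50 on the others. RAC2 had 14.03 and 14.51 there, against 5.05 to 5.55. The source of this gap was not tested.

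Autophagy wraps cytoplasm in a double membrane and delivers it to the lysosome for digestion. The ULK kinase complex starts the process, a PI3-kinase complex around BECN1 marks the membrane, and ubiquitin-like conjugation attaches LC3 and GABARAP proteins to it. TFEB and its relatives TFE3 and MITF bind the motif CACGTG and its longer form TCACGTGA in the promoters of many lysosomal and some autophagy genes, and mTORC1 at the lysosome keeps them in the cytoplasm. Autophagy is known to be induced in liver cancer cells by sorafenib. The arrays measured RNA levels only, not autophagic flux or lysosomal activity.

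The 2 arrays numbered 3 stood apart from the other 4. Of 11 hepatocyte and liver cancer markers, all 11 were detected on each array numbered 1 or 2 and 6 on each array numbered 3, where APOA1, APOA2, TTR, GPC3 and AHSG were not detected. Their summed signal over background was 221000, 135000 and 37800 intensity units on control arrays 1, 2 and 3, and 207000, 101000 and 33000 on sorafenib arrays 1, 2 and 3. Of these 11 markers 8 were lower on both arrays numbered 3 than on the others. The 2 that were higher were ALB and SERPINA1, and FGB overlapped. The list of fibroblast and stellate cell markers summed to 962, 959 and 8830 units in control and 843, 447 and 7550 in sorafenib. Of its 8 markers 6 were higher on both arrays numbered 3 than on the others, led by LUM, ACTA2 and THY1. DCN, 1 of the 6, was higher by only 0.50 on the log2 scale and was detected on 0 arrays. COL1A2 was lower on both arrays numbered 3, by 2.12 on the same scale, and PDGFRB overlapped. The leukocyte and macrophage list summed to 4290, 2610 and 18800 units in control and 3550, 1960 and 24300 in sorafenib. RAC2 alone carried 16100 and 22000 units of this on control and sorafenib array 3, and without it the list summed to 4270, 2580 and 2720 units in control and 3530, 1940 and 2260 in sorafenib. Of its 11 markers 6 were higher on both arrays numbered 3 than on the others, 1 was lower and 4 overlapped. Besides RAC2, the higher ones were CD14 (by 3.08 on the log2 scale), ITGAM (1.77), CSF1R (1.00), TYROBP (0.28) and PTPRC (0.081). The lower one was LYZ, at 44.9 and 51.3 units on the arrays numbered 3 against 615 to 2420. TYROBP, CD163 and PTPRC, the pan-leukocyte marker, were detected on 0 arrays. The 5 endothelial markers summed to 843, 590 and 118 units in control and 522, 289 and 108 in sorafenib. PECAM1 was detected on each array numbered 1 or 2, at log2 levels of 8.14 to 9.49. On control and sorafenib array 3 it was not detected, at 5.39 and 5.42. VWF, CDH5, KDR and TEK were detected on 0 arrays. The part of these other cell type markers in the results below was not tested. Some of the results, not all, are also given without the arrays numbered 3.

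Between 13195 and 15227 symbols were detected per array, with a median signal of 134 to 171 intensity units. A symbol was tested where its detection p was under 0.05 on at least 3 of the 6 arrays, which kept 14641 symbols and 39 of the 47 members: 20 autophagy genes, 18 lysosome genes and TFE3. Of the 8 members left out, MAP1LC3A, NBR1, TFEB, MITF and CTSS were near background on most arrays. ULK1, ATG9A and ATG4B were not: their signals exceeded the background mean by 2 SD on at least 3 arrays, although their deposited detection p did not pass. Levels below are log2 normalized signals, in which each probe set has its own scale, so that levels of different genes are not compared. A difference is sorafenib minus control of the same number on the log2 scale, and ± gives the SD of the 3 pair differences around their mean.

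No member passed the threshold of 0.05 on limma's adjusted p, whether the model held the group alone or the replicate number too (the blocked fit), and 0% of all 14641 symbols did so in either fit. With the group alone, ATG12 and NEU1 had an unadjusted p under 0.05, which is 5.13% of the tested members beside 2.12% of all symbols. With the block, 8 members were higher and 1 was lower at an unadjusted p under 0.05, which is 20.5% and 2.56% of the tested members, beside 8.95% and 10% of all symbols. The lowest adjusted p of a member in the blocked limma fit was 0.136, for ATG12. When the blocked fit was given a variance trend and robust moderation, 143 symbols passed, 0.519% of all symbols higher and 0.458% lower, and none of them was a member, with a lowest member adjusted p of 0.088 in limma. In the fit with the group alone, differences between replicate numbers enter the spread. The SD over the 3 control arrays had a median of 0.39 over the tested members, and the SD over the 3 pair differences a median of 0.27. The first is a spread of single arrays and the second of differences between 2 arrays, so their sizes are not directly comparable.

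Members were more often higher than lower after sorafenib, by small amounts. In all 3 pairs 12 of the 39 tested members were higher and 4 were lower, which is 30.8% and 10.3%, beside 21.5% and 22.2% of all symbols. Of the 20 autophagy genes 8 were higher and 3 lower in all pairs (40% and 15%). Of the 18 lysosome genes 4 were higher and 1 was lower (22.2% and 5.56%). The share of lysosome genes that were higher was thus close to that of all symbols, and the share that were lower was smaller. The median over all tested members was 0.16, 0.14 and −0.066 in pairs 1, 2 and 3. In 5 members, ATG14, ATG12, MAP1LC3B, GABARAPL1 and NEU1, every sorafenib array was above every control array, which is 12.8% of members beside 3.22% of all symbols, and in 0 members was the reverse seen, beside 3.25%. In pairs 1 and 2 alone 22 members were higher in both and 5 lower in both, beside 32.9% and 32.6% of all symbols.

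**Figure D1:**
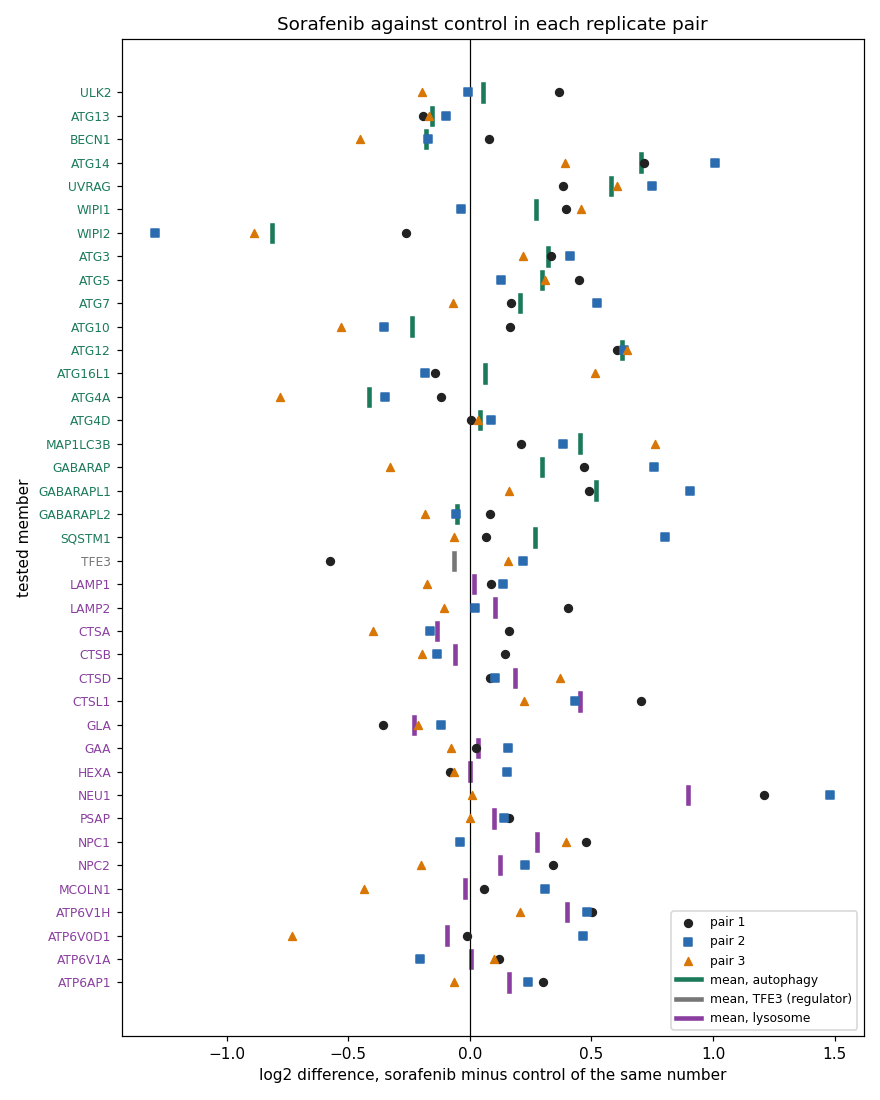
Log2 difference within each pair of equally numbered arrays, sorafenib minus control (x axis), for each of the 39 tested members (y axis), with 1 point per pair and a bar at the mean. Points lie between −1.29 (WIPI2, pair 2) and 1.48 (NEU1, pair 2), and 12 members have all 3 points to the right of 0.

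Within the pairs the medians of autophagy and lysosome genes lay close together, while over averaged genes they did not. Within pairs, the median difference of the autophagy genes was 0.19, 0.11 and −0.016 in pairs 1, 2 and 3, and that of the lysosome genes was 0.15, 0.15 and −0.073. The autophagy median less the lysosome median was therefore 0.037, −0.040 and 0.056, a mean of 0.018 ± 0.051 (SD, n = 3 pairs), which is smaller than its own spread and was not tested. When each gene was first averaged over the pairs, the median was 0.24 for autophagy genes and 0.068 for lysosome genes, beside about 0 for all symbols. Leaving out control replicate 2 brought the autophagy median to 0.081, control replicate 1 to 0.13 and sorafenib replicate 3 to 0.14, and it was 0.090 when all symbols served to estimate the background, 0.13 with a filter on signal and 0.062 with no filter. The lysosome median was 0.21 with array weights, against 0.21 for autophagy genes there, an alternative for these medians added after seeing the data. It was 0.17 without both arrays numbered 3, 0.034 with median scaling, and between −0.044 without control replicate 2 and 0.49 without control replicate 3, where the autophagy median was 0.23.

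**Figure D2:**
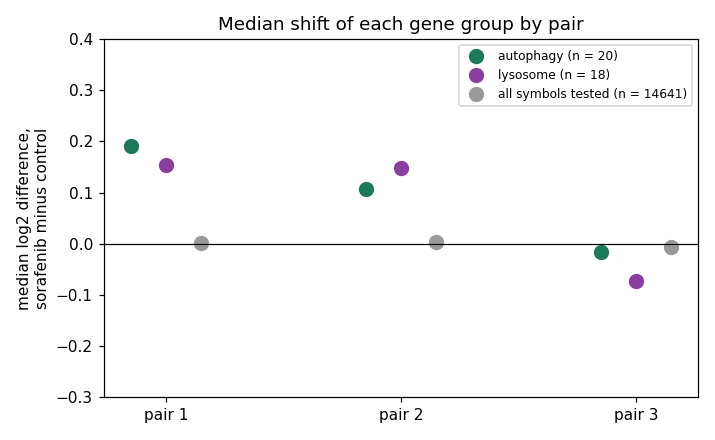
Median log2 difference (y axis) in each replicate pair (x axis) over the 20 tested autophagy genes, the 18 tested lysosome genes and all 14641 symbols tested. Both gene groups lie above 0 in pairs 1 and 2 and below 0 in pair 3, with at most 0.056 between them in any pair.

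The genes that start an autophagosome showed no common direction. ULK1, the kinase at the head of the pathway, was not tested; its log2 level was 11.22, 11.10 and 12.60 on control arrays 1, 2 and 3 and 11.31, 10.73 and 12.75 on sorafenib arrays 1, 2 and 3. It was thus highest on both arrays numbered 3, and the groups overlapped, with a difference of −0.040 ± 0.28. Its relative ULK2 differed by 0.055 ± 0.29. ATG13, the adaptor that holds the kinase complex together, was lower in all 3 pairs but only by 0.15 on average (adjusted p = 0.613 in the blocked limma fit).

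In the PI3-kinase complex, ATG14 and UVRAG were higher in every pair and BECN1 was not. ATG14, which directs the complex to forming autophagosomes, had log2 levels of 9.40, 9.61 and 9.48 in control and 10.11, 10.62 and 9.87 in sorafenib. Every sorafenib array was above every control array. The difference of 0.70 ± 0.31 (1.63-fold; n = 3 pairs) was larger in each pair than the spread among controls, with an adjusted p of 0.141 in the blocked limma fit. UVRAG, which takes the place of ATG14 in a second form of the complex, had levels of 9.48, 9.38 and 7.42 in control and 9.87, 10.13 and 8.03 in sorafenib. It was low on both arrays numbered 3, so the groups overlapped, while within pairs it was higher by 0.58 ± 0.18 (blocked limma adjusted p = 0.16). BECN1, shared by both forms, differed by 0.078, −0.17 and −0.45 in pairs 1, 2 and 3.

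Proteins that bring membrane and read the PI3P mark were lower or mixed. WIPI2, which binds PI3P and recruits the conjugation machinery, had levels of 7.79, 7.30 and 7.77 in control and 7.53, 6.01 and 6.88 in sorafenib. It was lower in every pair, by 0.26, 1.29 and 0.89, although sorafenib array 1 lay within the control range. The mean difference of −0.81 ± 0.52 was the largest downward one among the tested members (blocked limma adjusted p = 0.156), on a symbol detected on 2 control arrays and 1 sorafenib array. Its relative WIPI1 read 9.51, 9.43 and 9.69 in control and 9.91, 9.40 and 10.14 in sorafenib, a difference of 0.27 ± 0.27 with both directions among the pairs. ATG9A, the membrane-spanning lipid scramblase, was not tested and was lower in all 3 pairs by 0.30 ± 0.12.

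Among the conjugation enzymes, ATG12 had the least variable difference of all tested members. ATG12 is the ubiquitin-like protein joined to ATG5 by the enzymes ATG7 and ATG10. Its levels were 10.03, 9.97 and 9.78 in control and 10.63, 10.60 and 10.42 in sorafenib. All sorafenib arrays lay above all control arrays, including those numbered 3, by 0.63 ± 0.022 (1.54-fold; n = 3 pairs). ATG3, which transfers LC3 to lipid, was higher in all pairs by 0.32 ± 0.098 (blocked limma adjusted p = 0.324) and ATG5 by 0.30 ± 0.16 (adjusted p = 0.367 in the same fit). ATG7 at 0.21 ± 0.30, ATG10 at −0.24 ± 0.36 and ATG16L1, the scaffold of the ATG12 and ATG5 conjugate, at 0.062 ± 0.39 went both ways among the pairs.

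The ATG4 proteases, which trim LC3 and GABARAP proteins before conjugation and release them afterwards, were lower in all 3 pairs for ATG4A and ATG4B and slightly higher in all 3 for ATG4D. ATG4A had levels of 7.12, 7.34 and 9.02 in control and 7.0, 6.99 and 8.24 in sorafenib. It was high on both arrays numbered 3 and lower after sorafenib in every pair, by 0.42 on average (SD 0.34; blocked limma adjusted p = 0.29), and was detected on 1 control array and 3 sorafenib arrays. ATG4B, not tested, was lower in all pairs as well, by 0.36 on average. ATG4D was higher by 0.0045, 0.085 and 0.034 in pairs 1, 2 and 3, and its mean of 0.041 turned to −0.011 with median scaling.

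**Figure D3:**
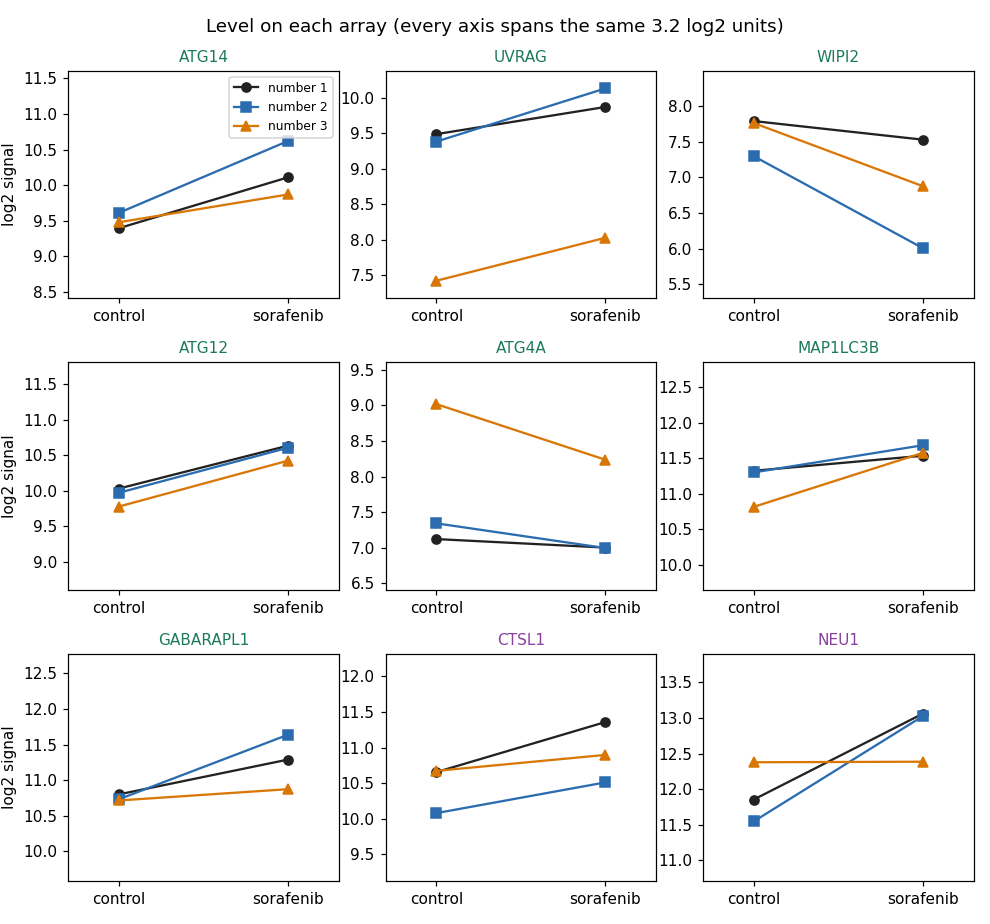
Log2 signal (y axis) on the control and the sorafenib array of each number (x axis) for the 9 tested members whose 3 pair differences shared a sign and averaged at least 0.4 in size; lines join arrays of the same number. ATG14, ATG12, MAP1LC3B, GABARAPL1 and NEU1 have every sorafenib point above every control point, and the line of NEU1 is flat for number 3.

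LC3 and GABARAP proteins coat the autophagosome and hold its cargo receptors, and 2 of the 4 tested members had groups fully apart. MAP1LC3B, the usual marker of autophagosomes, had levels of 11.32, 11.30 and 10.82 in control and 11.54, 11.68 and 11.58 in sorafenib. The sorafenib arrays were all higher, by 0.45 ± 0.28 (1.37-fold; blocked limma adjusted p = 0.247), and the widest gap was in pair 3. GABARAPL1 read 10.80, 10.73 and 10.71 in control and 11.29, 11.64 and 10.87 in sorafenib. It was again higher on every sorafenib array, by 0.52 ± 0.37 (1.43-fold; blocked limma adjusted p = 0.23), here with the narrowest gap in pair 3. GABARAP was higher in pairs 1 and 2, by 0.47 and 0.76, and differed by −0.33 in pair 3. GABARAPL2 differed by −0.052 ± 0.13, and MAP1LC3A was near background on all 6 arrays.

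The cargo receptors differed little or not in every pair. SQSTM1, the receptor p62 that is itself degraded by autophagy, had levels of 14.19, 13.53 and 14.63 in control and 14.26, 14.33 and 14.56 in sorafenib. Only the gap in pair 2, at 0.80, stood out, and pairs 1 and 3 differed by 0.068 and −0.067. NBR1 was near background, at 5.01 to 5.41.

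Of the transcription factors that drive these genes, TFE3 alone was tested, with differences of −0.57, 0.22 and 0.16 in pairs 1, 2 and 3. TFEB had levels of 5.54, 5.65 and 5.90 in control and 5.50, 5.33 and 6.61 in sorafenib, and was detected on 1 sorafenib array and 0 control arrays. MITF read 5.22, 5.44 and 7.23 in control and 5.52, 5.78 and 8.21 in sorafenib, with a detection p under 0.05 on 0 arrays; it was highest on both arrays numbered 3 and higher after sorafenib in each pair, by 0.54 ± 0.38. RNA levels do not show where these proteins were in the cell.

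Among lysosomal enzymes the sialidase NEU1 had the largest difference of any tested member, in 2 of the 3 pairs. NEU1 removes sialic acid from glycoproteins and works in a complex with CTSA. Its levels were 11.85, 11.55 and 12.38 in control and 13.06, 13.03 and 12.39 in sorafenib. It was higher by 1.21 and 1.48 in pairs 1 and 2 and level in pair 3, at 0.0076, where the control was already the highest of its group. The mean was 0.90 ± 0.78 (1.86-fold; blocked limma adjusted p = 0.192). Without both arrays numbered 3 the difference was 1.34 (SE 0.22, n = 2 pairs), and NEU1 was then the 1 member past the threshold in the blocked limma fit (adjusted p = 0.0282), in which 2.19% of all symbols passed. The other glycosidases differed by less: GAA, which degrades glycogen, differed by 0.035 ± 0.12, HEXA by 0.0020 ± 0.13, and GLA was lower in all pairs by 0.23 ± 0.12 on average (blocked limma adjusted p = 0.467). The signs of GAA and HEXA turned with median scaling, at −0.018 and −0.073. PSAP, the precursor of the saposins that present lipids to these enzymes, differed by 0.10 ± 0.088.

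The cathepsins, the main proteases of the lysosome, were led by CTSL1 (current symbol CTSL). Its levels were 10.65, 10.08 and 10.67 in control and 11.36, 10.51 and 10.90 in sorafenib. The groups overlapped because both arrays numbered 2 were low, but each pair was higher after sorafenib, by 0.45 ± 0.24 on average (1.37-fold; blocked limma adjusted p = 0.232). CTSD read 9.08, 9.40 and 11.60 in control and 9.16, 9.50 and 11.97 in sorafenib, a difference of 0.19 ± 0.16 that was higher in all pairs but small beside the gap between array numbers. CTSA and CTSB differed by −0.13 ± 0.28 and −0.061 ± 0.18, with both directions among the pairs. CTSS, a protease of antigen-presenting cells, was near background on all arrays.

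Genes of the lysosomal membrane and its cholesterol export went both ways among the pairs. LAMP1, the most used lysosomal marker, had levels of 13.12, 13.18 and 14.24 in control and 13.21, 13.31 and 14.06 in sorafenib, a difference of 0.015 ± 0.17 that turned to −0.024 with median scaling. LAMP2 differed by 0.40, 0.021 and −0.11 in pairs 1, 2 and 3. The cholesterol exporter NPC1 read 11.90, 11.63 and 12.96 in control and 12.38, 11.59 and 13.35 in sorafenib, which was higher by 0.48 and 0.39 in pairs 1 and 3 and not in pair 2, at −0.042. Its soluble partner NPC2 differed by 0.34, 0.23 and −0.20 in pairs 1, 2 and 3. The calcium channel MCOLN1 read 8.35, 8.03 and 10.12 in control and 8.41, 8.34 and 9.68 in sorafenib, a difference of −0.021 ± 0.38 made of 0.060, 0.31 and −0.43.

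Of 4 genes of the proton pump that acidifies the lysosome, ATP6V1H, its regulatory H subunit, was higher in all 3 pairs, by 0.50, 0.48 and 0.21 (mean 0.40 ± 0.16; blocked limma adjusted p = 0.255). ATP6AP1, an accessory subunit, was higher in pairs 1 and 2 only, with a mean of 0.16 ± 0.20. The catalytic subunit ATP6V1A differed by 0.0041 ± 0.18, which turned to −0.010 with median scaling, and ATP6V0D1 of the membrane sector by −0.013, 0.47 and −0.73.

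Promoter sequences show which of these genes carry the motif of TFEB and its relatives. RefSeq promoters, 250 bases before to 50 after a gene's start (GRCh38.p14), were matched for 37 members. CACGTG, which reads alike on both strands, was found in 9 of them (24.3%), namely 7 of 12 lysosome genes and 2 of 22 autophagy genes, beside 10.9% of 15843 protein-coding genes. The longer TCACGTGA, which contains CACGTG, was found in 6 members (16.2%), LAMP1, CTSA, GAA, MCOLN1, ATP6V0D1 and ATG3, beside 1.65%. TGATGNAA, searched on both strands as the core of the element that ATF4 and CHOP bind, was found in 0 members, beside 3.6%. A match is not a bound site, and no match speaks only of this window. LAMP1 and MCOLN1 are shown as the members with repeated TCACGTGA among those given array by array, and NEU1 and ATG14, chosen after their values were seen, as the lysosome and the autophagy gene with the largest upward difference. Each is written 5′ to 3′ with CACGTG in capitals.
LAMP1 promoter, chr13:113296989-113297288, plus strand: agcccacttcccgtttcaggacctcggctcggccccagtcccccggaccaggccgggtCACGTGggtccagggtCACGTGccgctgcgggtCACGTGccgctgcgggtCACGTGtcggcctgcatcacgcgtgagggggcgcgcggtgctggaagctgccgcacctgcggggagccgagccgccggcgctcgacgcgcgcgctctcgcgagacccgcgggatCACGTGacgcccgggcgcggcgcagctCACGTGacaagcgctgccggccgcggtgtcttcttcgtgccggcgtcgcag
MCOLN1 promoter, chr19:7522374-7522673, plus strand: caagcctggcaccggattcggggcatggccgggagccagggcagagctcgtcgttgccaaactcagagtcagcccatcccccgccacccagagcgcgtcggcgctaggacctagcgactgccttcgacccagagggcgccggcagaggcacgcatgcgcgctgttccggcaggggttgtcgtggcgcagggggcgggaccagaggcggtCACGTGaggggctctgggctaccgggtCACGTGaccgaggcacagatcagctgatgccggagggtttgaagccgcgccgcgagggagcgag
NEU1 promoter, chr6:31862772-31863071, minus strand: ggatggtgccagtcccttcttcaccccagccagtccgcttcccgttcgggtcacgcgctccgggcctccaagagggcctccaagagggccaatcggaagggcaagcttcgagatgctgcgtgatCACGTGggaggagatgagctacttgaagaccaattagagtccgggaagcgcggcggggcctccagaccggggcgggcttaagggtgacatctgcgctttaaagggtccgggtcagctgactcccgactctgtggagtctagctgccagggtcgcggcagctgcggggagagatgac
ATG14 promoter, chr14:55411781-55412080, minus strand: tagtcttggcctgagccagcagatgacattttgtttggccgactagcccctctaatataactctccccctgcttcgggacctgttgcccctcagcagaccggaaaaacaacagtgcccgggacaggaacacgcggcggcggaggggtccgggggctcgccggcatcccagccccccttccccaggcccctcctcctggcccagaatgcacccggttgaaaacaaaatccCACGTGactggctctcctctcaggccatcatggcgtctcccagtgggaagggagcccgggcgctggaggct
LAMP1 holds 6 copies of CACGTG, of which 2 lie in TCACGTGA, and MCOLN1 holds 2 copies, both in TCACGTGA; their mean differences were 0.015 and −0.021. NEU1 and ATG14 hold 1 copy each, 126 and 21 bases before the start and neither within TCACGTGA; their mean differences were 0.90 and 0.70. Because NEU1 and ATG14 were chosen by these differences, the promoters shown cannot relate motif copies to differences. The other members with CACGTG were ATG3, CTSA, CTSD, GAA and ATP6V0D1, with mean differences of 0.32, −0.13, 0.19, 0.035 and −0.094.

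Pooled over the tested genes, more of the sum of squares lay between array numbers than between treatments. In the autophagy genes 71.3% went with the array number and 20.4% with treatment. In the lysosome genes these shares were 90.7% and 5.16%, and over all symbols 88.1% and 6.94%. Pooled shares follow the genes with wide gaps between the arrays numbered 3 and the others. Among autophagy genes these were UVRAG (−1.99), ATG4A (1.51) and ATG10 (−1.16). The shares thus do not describe a typical gene. The array number also has 3 levels against 2 for treatment. Lysosome genes were on balance higher on the arrays numbered 3. Over the 18 tested lysosome genes the mean of both arrays numbered 3 was above that of the other 4 by a median of 0.58, beside 0.057 for autophagy genes and −0.0093 for all symbols. In 10 lysosome genes both arrays numbered 3 were above all others (55.6%), as in 6 autophagy genes (30%), beside 24.4% of all symbols. CTSD was higher there by 2.50, LAMP2 by 2.20, CTSA by 2.18, MCOLN1 by 1.62, CTSB by 1.57 and NPC1 by 1.28. In 6 lysosome genes (33.3%) the gap was at least 1, beside 14% of all symbols. Running the other way, UVRAG differed by −1.99 and ATG10 by −1.16, the 2 members lower there by at least 1, beside 17.9% of all symbols. The fibroblast and stellate cell markers were summed at 7550 to 8830 units on these arrays against 447 to 962 on the others. Of the 11 hepatocyte markers 8 were lower there. ALB was higher, at 14.05 to 14.43 against 8.98 to 9.89, as was SERPINA1, at a mean of 13.57 against 13.01, and FGB overlapped. The part of these markers in the gaps was not tested.

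**Figure D4:**
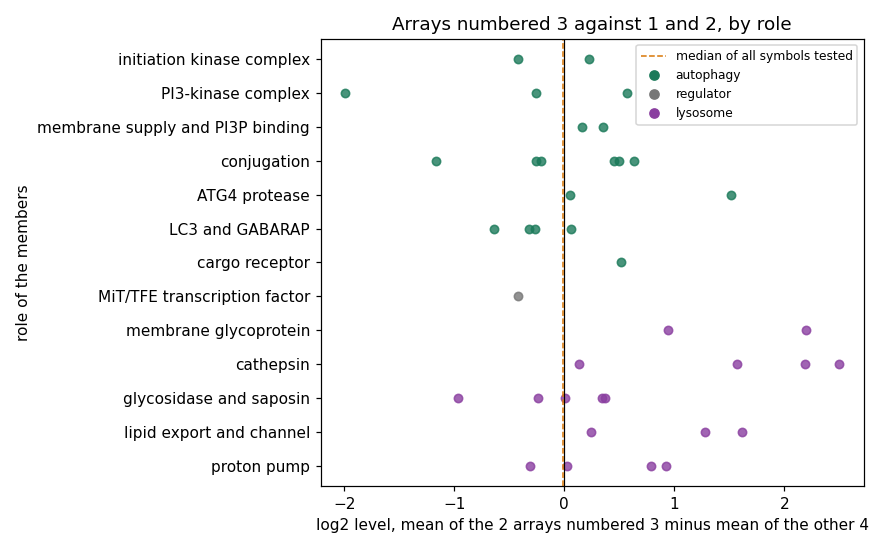
Log2 level on the 2 arrays numbered 3 minus that on the other 4 (x axis) for each tested member, by role (y axis); the dashed line is the median of all symbols tested. CTSD, LAMP2 and CTSA lie farthest to the right, at 2.50, 2.20 and 2.18, and UVRAG lies at −1.99 on the left.

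Other genes of the pathway, taken from 3 further lists, showed 0 past the threshold in the fit with the group alone or with the block (limma), with 1 other lysosome gene at an unadjusted p under 0.05 in the former. Among 33 further autophagy genes 7 were higher and 9 lower in all pairs, close to the 21.5% and 22.2% of all symbols. AMBRA1, a regulator of the BECN1 complex, differed by 0.68 ± 0.64, NRBF2 by 0.42 ± 0.11 and SH3GLB1 by 0.55 ± 0.27. The fusion adaptor PLEKHM1 differed by −0.99 ± 0.97, the SNARE protein VAMP8 by −0.57 ± 0.44 and PIK3R4 by −0.53 ± 0.34. Among 54 further lysosome genes 10 were higher and 9 lower in all pairs, with LAMP3 at 0.83 ± 0.69, TMEM192 at 0.80 ± 0.64, ACP5 at 0.70 ± 0.40, the acid lipase LIPA at −0.58 ± 0.29 and LAPTM4B at −0.48 ± 0.14.

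Of the genes of mTORC1, AMPK and nutrient sensing, 9 of 23 (39.1%) were higher and 4 lower in every pair, beside the same 21.5% and 22.2%. In 0 of the 23 was every sorafenib array above every control array, beside 3.22% of all symbols. The reverse was seen in 2, SLC36A1 and STK11, beside 3.25%. FLCN, which together with the Rag GTPases controls whether mTORC1 restrains TFEB and TFE3, differed by 0.95 ± 0.81. RRAGD and RRAGC, the Rag GTPases it acts on, differed by 0.93 ± 0.42 and 0.70 ± 0.58. The lysosomal amino acid transporter SLC36A1 was lower in each pair, at −0.79 ± 0.15 (blocked limma adjusted p = 0.114), and RRAGB and STK11, the kinase upstream of AMPK, differed by −0.50 ± 0.53 and −0.28 ± 0.31. Like NEU1, FLCN differed most in pairs 1 and 2, at 1.01 and 1.73, and least in pair 3, at 0.11. Without both arrays numbered 3, FLCN at 1.37, TMEM192 at 1.16 and RRAGD at 1.15 passed the threshold with NEU1 in the blocked limma fit (adjusted p = 0.0339, 0.0384 and 0.0384), a fit on 2 pairs. In that fit 320 of all 14641 symbols passed (2.19%), and whether the pathway genes exceed this share was not tested. These lists were written with earlier results on these arrays known, and the samples behind them are the same.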

How the data were processed

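The 6 samples, 3 per group, were hybridised to Illumina BeadChips from biotin-labelled cRNA per the labels' protocols. The deposited files hold non-normalized signal intensities, with 1 value per gene symbol and array in a way of combining probes that is not given in the sources used here; per the file headers, a detection p-value follows each intensity. A deposited value table was not used, since its sorafenib columns are filled for 59 symbols.

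The tables, joined by symbol, were processed in R 4.3.3 with limma 3.58.1. The background was removed by the neqc method (offset 16), estimated from the 27247 symbols whose detection p-values were whole multiples of 1 in 770 on all 6 arrays (tolerance 0.001). Quantile normalization and a log2 transform followed. Tests were run on symbols detected (p under 0.05) on at least 3 arrays, with lmFit and eBayes, two-sided, with Benjamini-Hochberg adjustment over all 14641. The main design held the group alone. Equal numbers were treated as pairs, and the blocked fit is given beside the main one. Deviations from the group mean correlated at 0.904, 0.791 and 0.926 between arrays of the same number. The gap between the arrays numbered 3 and the others enters all of these values, and correlations between unlike numbers are not given. They therefore cannot show that 1 belongs with 1 and 2 with 2. The number of arrays limits the precision. The fits were also run on simulated data with 1 noise spread for all genes and the pairing by number built in. Such data cannot show how the fits behave on these arrays.

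All 47 members are named; values on every array are given for members with 1 sign in all pairs and a mean difference of at least 0.4, and for 11 fixed by their role, such as LAMP1. Members, lists and settings were chosen with earlier results on these arrays known. Promoter sequences are from RefSeq; protein sequences were not used here. For 1 gene of the further lysosome list, a value that the naming rule asks for is not reported here.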

Additional observations from a re-analysis of the deposited data

How the results depend on the processing

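With 3 pairs and 0 members past the threshold, the differences given for single members are descriptions. The count of members past the threshold stayed at 0 in each alternative except without both arrays numbered 3 and with the replicate block, where it was 1 (NEU1), with 3 other pathway genes and 320 of all symbols. The replicate block alone left 0 members and 0 symbols past the threshold, and so changed no call; with trend and robust estimation added it gave 143 symbols and 0 members. The autophagy median of 0.24 was 0.090 with the background from all symbols and 0.062 with no detection filter, beside lysosome medians of 0.063 and 0.049; the lysosome median of 0.068 was 0.21 with array weights. A separate measure, the autophagy median less the lysosome median taken within each pair and averaged over the pairs, was 0.018, and −0.038 with no detection filter. It was −0.016 with the background from all symbols, −0.031 with the signal filter, −0.00033 without background correction and −0.0013 without both arrays numbered 3. With 1 array left out, the autophagy median ran from 0.081 to 0.23, the lysosome median from −0.044 to 0.49, and the within-pair measure, over the pairs left, from −0.0013 to 0.047. Without control replicate 3 the medians over averaged genes were thus 0.23 and 0.49, apart in the direction opposite to the main setting. Over the pairs then left, 13 to 22 members were higher in each and 5 to 10 lower in each; without both arrays numbered 3, 22 were higher and 5 lower. Only the members listed under their own symbol, an alternative added after seeing the data, gave 11 higher and 3 lower. The cause of these shifts was not tested, except that fewer pairs make 1 direction in all of them easier to reach.

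Of 39 tested members 15 kept their sign in every alternative and 24 did not, 50 of the 68 changed signs arising when 1 array was left out, which leaves its partner unmatched. Median scaling turned ATG4D (−0.011), LAMP1 (−0.024), GAA (−0.018), HEXA (−0.073) and ATP6V1A (−0.010). Array weights, an alternative added for single members after seeing the data, turned 7: BECN1 (0.028), ATG16L1 (−0.044), CTSA (0.17), CTSB (0.11), MCOLN1 (0.31), ATP6V0D1 (0.30) and ATP6V1A (−0.13). Without both arrays numbered 3 the differences of ATG16L1 (−0.16), GABARAPL2 (0.013), CTSB (0.0060), MCOLN1 (0.18), ATP6V0D1 (0.23) and ATP6V1A (−0.043) had turned. With 1 array left out the range was −0.15 to 0.19 for ULK2, −0.42 to 0.074 for BECN1, −0.091 to 1.23 for UVRAG, −0.020 to 0.44 for ATG7, −0.64 to 0.22 for ATG10 and −0.20 to 0.24 for ATG16L1. It was −0.83 to 0.18 for ATG4A, −0.035 to 0.097 for ATG4D, −0.23 to 0.19 for GABARAPL2, −0.026 to 0.52 for SQSTM1 and −0.41 to 0.19 for TFE3. Among lysosome genes it was −0.25 to 0.38 for LAMP1, −0.57 to 0.89 for LAMP2, −0.80 to 0.66 for CTSA, −0.55 to 0.50 for CTSB, −0.69 to 0.97 for CTSD, −0.091 to 0.17 for GAA, −0.30 to 0.34 for HEXA and −0.18 to 0.70 for NPC1. It was −0.00021 to 0.28 for NPC2, −0.46 to 0.62 for MCOLN1, −0.33 to 0.075 for ATP6V0D1, −0.12 to 0.14 for ATP6V1A and −0.049 to 0.48 for ATP6AP1.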
